A study of Homo sapiens with 6 samples.

Results

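The 10 human Toll-like receptor genes, TLR1 to TLR10, were followed in a leukaemia cell line whose JAK signalling was inhibited. All 10 were measured, among 33616 genes on the array. The family was taken by name. The transcript cluster (the probes that read one locus) that stands for each gene was chosen by the highest mean signal over all arrays, so the levels are a description. The line was MHH-cALL4, which the labels describe as human Philadelphia chromosome-like (Ph-like) acute lymphoblastic leukaemia, here grown in RPMI with fetal bovine serum and antibiotics. There were 3 arrays of cells given the vehicle DMSO and 3 of cells given 1 µM ruxolitinib, which inhibits the kinases JAK1 and JAK2, each for 12 h. The line is called MHH-cALL5 in the ruxolitinib samples' titles but MHH-cALL4 in the cell line field of all 6 samples, which was followed. One cell line was used, and separate cultures behind the replicates are not mentioned in the labels, so p-values cover only the spread between these samples, which may be technical.

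Toll-like receptors are membrane proteins that recognise microbial molecules through an outer domain of leucine-rich repeats and signal through an inner TIR domain. TLR1, TLR2, TLR4, TLR5, TLR6 and TLR10 are known mainly from the cell surface, where TLR2 pairs with TLR1 or TLR6 to bind bacterial lipoproteins, TLR4 responds to lipopolysaccharide and TLR5 to flagellin. TLR3, TLR7, TLR8 and TLR9 sense nucleic acids in endosomes. The adaptor MyD88 serves nearly all of them and leads to NF-kB and interferon regulatory factors. B cells are known for TLR1, TLR6, TLR7, TLR9 and TLR10.

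The label was checked against markers first. All 10 measured B-cell precursor markers lay above 5.76 on the log2 scale, the 95th percentile of the mean signals of 400 olfactory receptor genes, used here as a yardstick of genes that lymphoid cells hardly use. Of 5 T-cell markers 0 lay above it, of 9 myeloid markers 3, of 5 plasmacytoid dendritic cell markers 2 and of 4 plasma cell markers 2. CISH, a STAT5-induced feedback inhibitor, fell by 6.52 ± 0.19 (log2 change ± SE), and SOCS2 fell by 1.98 ± 0.17. Arrays of a group correlated at 0.990 to 0.994 over all genes, and arrays of different groups at 0.987 to 0.993. DMSO replicate 1 and ruxolitinib replicate 3 stood apart on the second principal component (29.8% of the variance) and had the highest mean of 279 small nuclear, nucleolar and ribosomal RNA genes, at 8.17 and 8.14 against 7.65 to 7.85 on the other 4 arrays.

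TLR7 and TLR6 were called lower with ruxolitinib, calls that held in 14 and 5 of 17 alternative fits. TLR10 and TLR1 were lower on every ruxolitinib array without passing the test, though TLR10 passed in 5 of those alternatives. At a Benjamini-Hochberg adjusted p under 0.05 over all genes (limma), 2 of the 10 receptor genes were lower and 0 were higher (at an unadjusted p under 0.05, 4 were lower and 0 higher, against 6.85% and 2.68% of all genes). Over all genes 1.14% were called, 1.04% as lower and 0.101% as higher. The groups did not overlap, with ruxolitinib lower, for 4 of the 10 receptor genes, against 9.03% of all genes, and with ruxolitinib higher for 2, against 5.14%. The yardstick split the family. TLR1, TLR4, TLR6, TLR7 and TLR10 had means above it, and TLR2, TLR3, TLR5, TLR8 and TLR9 lay below it. There the level alone cannot tell a signal from background. The 5 brighter genes held both calls, and over the 14161 genes above the yardstick 2.31% were called lower and 15.4% were lower with no overlap.

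**Figure D1:**
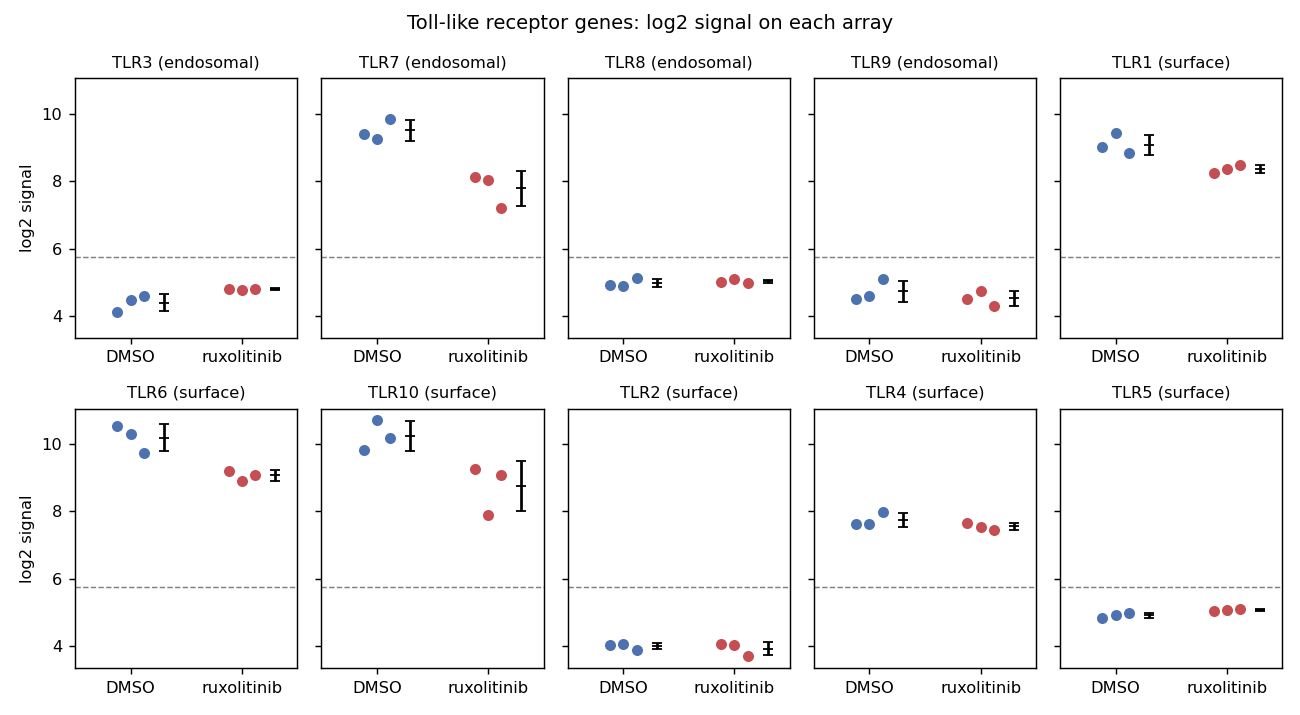
Log2 signal (vertical axis) of each Toll-like receptor gene on the 3 DMSO (blue) and 3 ruxolitinib (red) arrays, with mean and SD as bars and the 95th percentile of the olfactory receptor genes (5.76) as a dashed line. TLR7, TLR6, TLR10 and TLR1 lie above the line with their groups apart, TLR4 lies above it with overlapping groups, and the other 5 genes lie below it.

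TLR7, the endosomal receptor for single-stranded RNA (cluster TC0X00006625.hg.1), had log2 signals of 9.41, 9.25 and 9.86 with DMSO and 8.14, 8.03 and 7.20 with ruxolitinib, in the order of replicates 1 to 3. All 3 ruxolitinib values lay more than 1 unit below the lowest DMSO value, and ruxolitinib replicate 3 lay lowest. The mean went from 9.51 ± 0.31 to 7.79 ± 0.51 (SD, n = 3 per group). TLR7 fell by 1.72 ± 0.26 on the log2 scale (SE; 95% interval -2.29 to -1.14), which is 3.29-fold, with an adjusted p of 0.00909 (limma). Among all genes this change stood at the lowest 0.190%. The call remained in each of the 6 fits that leave out 1 array (adjusted p 0.0138 to 0.0485) and in the fit lacking DMSO replicate 1 and ruxolitinib replicate 3 (adjusted p = 0.0164, change -1.47). It passed in 14 of 17 alternatives (adjusted p 0.00123 to 0.366). The losses were without moderation of the spread (adjusted p = 0.366), with all rows of the table tested (adjusted p = 0.112) and with the replicate block (adjusted p = 0.0555).

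TLR6, the surface partner of TLR2 for diacylated lipoproteins (cluster TC0400012922.hg.1), had signals of 10.52, 10.31 and 9.74 with DMSO and 9.21, 8.90 and 9.09 with ruxolitinib. The groups did not overlap, and DMSO replicate 3 lay nearest to the ruxolitinib arrays. TLR6 fell by 1.12 ± 0.22 (SE; interval -1.61 to -0.64; adjusted p = 0.0359, limma), from 10.19 ± 0.40 to 9.07 ± 0.16 (SD), or 2.18-fold. This call was less stable than that of TLR7: it held in 1 of the 6 fits that leave out 1 array, being lost without DMSO replicate 1 or 2 or any ruxolitinib array (adjusted p 0.071 to 0.208). It was also lost with these 2 outlying arrays removed (adjusted p = 0.131) and under all 3 other scalings (adjusted p 0.0557 to 0.130), and it passed in 5 of 17 alternatives in all (adjusted p 0.00979 to 0.412). The log2 change itself stayed between -1.35 and -0.94 over all 17 alternatives.

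TLR10, a receptor of B cells that is close in sequence to TLR1 and TLR6 and is known as an inhibitory member of the family (cluster TC0400010449.hg.1), had signals of 9.82, 10.70 and 10.17 with DMSO and 9.27, 7.91 and 9.09 with ruxolitinib. Ruxolitinib replicate 2 lay more than 1 unit below the other arrays of its group. The log2 change was -1.48 ± 0.34 (SE; interval -2.22 to -0.74; adjusted p = 0.0727, limma), larger in size than that of TLR6 but with the widest spread of the family. It passed in 5 of 17 alternatives, among them the fit lacking those same outlying arrays (-1.85, adjusted p = 0.0415), while its adjusted p over the alternatives ran from 0.0157 to 0.580. Without ruxolitinib replicate 2 the change was -1.05 (adjusted p = 0.228).

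TLR1, the other partner of TLR2, for triacylated lipoproteins (cluster TC0400012921.hg.1), had signals of 9.01, 9.42 and 8.83 with DMSO and 8.25, 8.37 and 8.48 with ruxolitinib. The groups did not overlap but came within 0.5 units of each other. The log2 change was -0.72 ± 0.20 (SE; interval -1.15 to -0.29; adjusted p = 0.148, limma), and it passed in 0 of 17 alternatives (adjusted p 0.0711 to 0.520). A second, dimmer TLR1 cluster, TC0400012920.hg.1, showed -0.36 ± 0.27, with ruxolitinib replicate 1 (7.09) above all DMSO arrays (6.74 to 7.07). Because TLR1, TLR6 and TLR10 are close paralogs, probes of one may also bind the transcript of another, and the part of this in their signals was not tested.

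TLR4, the lipopolysaccharide receptor (cluster TC0900008587.hg.1), was the brighter gene whose groups overlapped. It read 7.63, 7.62 and 7.98 with DMSO and 7.66, 7.55 and 7.46 with ruxolitinib, a log2 change of -0.19 ± 0.18 (SE; interval -0.59 to 0.20; adjusted p = 0.862, limma). The interval reaches from a log2 fall of 0.59 to a smaller rise. Its second cluster, TC0900008591.hg.1, was dim (mean 4.17) and had a change of 0.27 ± 0.17.

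**Figure D2:**
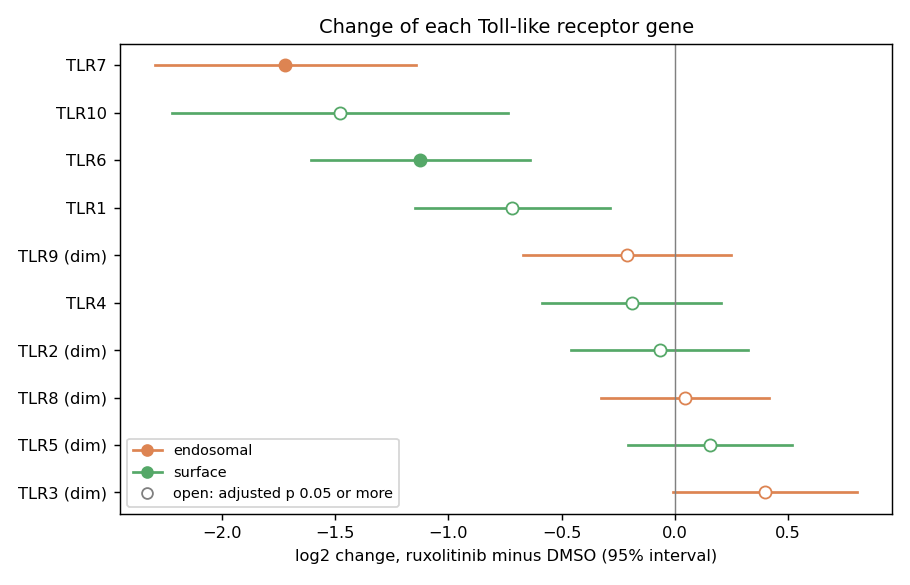
Log2 change (ruxolitinib minus DMSO, horizontal axis) of each receptor gene with its 95% interval, in orange for endosomal and green for surface receptors; filled points have an adjusted p under 0.05, and genes below the olfactory receptor yardstick are marked dim. TLR7 (-1.72) and TLR6 (-1.12) are filled, and the intervals of TLR10 and TLR1 also lie below 0.

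None of the 5 dim genes passed the test. TLR3, the endosomal receptor for double-stranded RNA, read 4.11, 4.47 and 4.60 with DMSO and 4.81, 4.76 and 4.80 with ruxolitinib, so all ruxolitinib arrays were higher, by 0.40 ± 0.19 (SE; adjusted p = 0.537, limma). TLR5, the flagellin receptor, was also higher on all ruxolitinib arrays, at 5.05 to 5.09 against 4.83 to 4.98, a difference of 0.16 ± 0.16. TLR2 (log2 change -0.07 ± 0.18), TLR8 (0.04 ± 0.17) and TLR9, the receptor for unmethylated CpG DNA (-0.21 ± 0.21), had overlapping groups. The sign of TLR2 turned without ruxolitinib replicate 3 (0.04) and without both arrays that stood apart (0.06). The adjusted p of these 5 genes was 0.388 or more in all alternatives that tested them. At such levels a change in transcript may be understated.

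**Figure D3:**
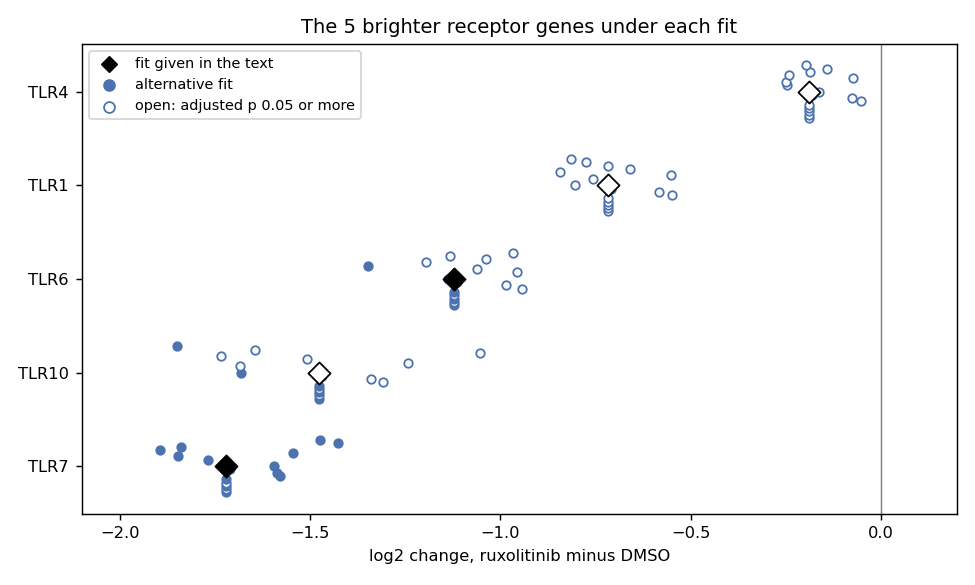
Log2 change (ruxolitinib minus DMSO, horizontal axis) of the 5 brighter receptor genes in the fit given in the text (diamond) and in 17 alternative fits (circles); filled symbols have an adjusted p under 0.05. TLR7 lies between -1.89 and -1.43 and is filled in 14 of 17 alternatives, and TLR6 and TLR10 in 5 each.

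Endosomal and surface receptors were set against each other, and both classes held bright and dim genes. Of the 4 endosomal genes 1 was lower (TLR7) and 1 lay above the yardstick. Of the 6 surface genes 1 was lower (TLR6) and 4 lay above it. The median log2 change was -0.08 for the endosomal genes and -0.45 for the surface genes, beside -0.02 for all genes and -0.09 for all genes above the yardstick. The difference between these medians, 0.37, became 0.13 with the second clusters of TLR1 and TLR4, and no test was made over members. Above the yardstick the order was the other way. There the endosomal TLR7 had -1.72, and the surface genes TLR10, TLR6, TLR1 and TLR4 had -1.48, -1.12, -0.72 and -0.19. The medians of the whole classes thus mix bright and dim genes in unlike shares. Each class held a gene that passed and others that did not. The median of the 5 brighter receptors was -1.12 and that of the 5 dim ones 0.04.

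Among protein-coding genes, both called genes have another receptor gene as a neighbour. In the RefSeq order TLR10, TLR1 and TLR6 follow each other on chromosome 4, with the non-coding gene LOC124900695 between TLR1 and TLR6, and TLR7 and TLR8 follow each other on chromosome X with TLR8-AS1 between them. All 3 genes of the chromosome 4 group had ruxolitinib arrays below every DMSO array at their chosen clusters. This held for 9.03% of all genes and 15.4% of genes above the yardstick. The second TLR1 cluster overlapped. Probes of these close paralogs may bind each other's transcripts, which was not tested, so the 3 readings may not be independent. The nearest measured protein-coding gene on the TLR10 side, KLF3, a zinc finger repressor, was lower as well without passing (log2 change -0.74 ± 0.19, adjusted p = 0.125, limma), from 9.29 ± 0.29 to 8.55 ± 0.11 (SD). FAM114A1, on the TLR6 side, was dim in both groups (4.45 and 4.12; change -0.33 ± 0.19). On the X chromosome no measured neighbour of TLR7 passed. TLR8 was dim, the antisense RNA TLR8-AS1 had a change of -0.05 ± 0.24, and PRPS2 (0.19 ± 0.16) and TMSB4X (-0.08 ± 0.17), which were bright, did not pass.

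**Figure D4:**
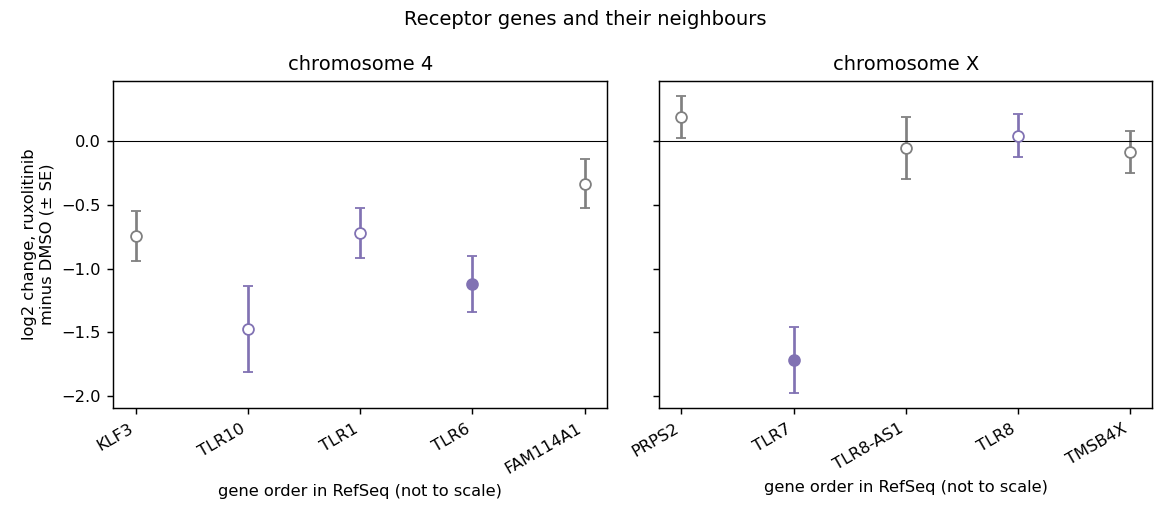
Log2 change (ruxolitinib minus DMSO, vertical axis, with SE) of genes in RefSeq order on chromosomes 4 and X; receptor genes are purple, other genes grey, and filled points have an adjusted p under 0.05. The receptors on chromosome 4 lie at -1.48, -0.72 and -1.12 with KLF3 at -0.74. On chromosome X only TLR7 (-1.72) is filled, and its neighbour TLR8 lay below the olfactory receptor yardstick.

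RefSeq promoter windows (GRCh38.p14, from 250 bases before to 50 after the start of the gene) were at hand for 7 of the 10 genes, TLR2, TLR3, TLR4, TLR5, TLR6, TLR8 and TLR9. They were searched on both strands for the STAT motif TTCNNNGAA, the IRF motif (GAAA, any 2 bases, GAAA) and the PU.1 motif GAGGAAGT, which 7.66%, 3.57% and 2.59% of 35116 promoters of this length hold. The windows shown are that of TLR6 as the called gene with a window and that of TLR3 as the window with STAT and IRF matches, in capitals. The TLR6 window is chr4:38856768-38857067 (minus strand) and the TLR3 window chr4:186068906-186069205 (plus strand).
TLR6: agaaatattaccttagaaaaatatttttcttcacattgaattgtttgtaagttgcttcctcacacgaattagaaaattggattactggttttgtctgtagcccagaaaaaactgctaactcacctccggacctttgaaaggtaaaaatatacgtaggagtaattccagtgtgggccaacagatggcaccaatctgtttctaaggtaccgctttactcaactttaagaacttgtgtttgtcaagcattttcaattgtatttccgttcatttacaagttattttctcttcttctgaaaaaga
TLR3: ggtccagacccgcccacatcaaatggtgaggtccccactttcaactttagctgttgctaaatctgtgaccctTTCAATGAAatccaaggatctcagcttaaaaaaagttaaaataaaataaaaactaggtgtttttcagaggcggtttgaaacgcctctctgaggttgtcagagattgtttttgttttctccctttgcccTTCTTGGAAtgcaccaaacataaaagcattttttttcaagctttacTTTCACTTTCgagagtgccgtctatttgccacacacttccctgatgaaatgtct
The TLR6 window held none of the 3 motifs as written. The TLR3 window held 2 STAT matches, TTCAATGAA and TTCTTGGAA, which begin 178 and 50 bases before the start, and an IRF match on the other strand, TTTCACTTTC, 4 bases before it, and TLR3 was dim in both groups. TLR4 held 2 PU.1 matches and TLR9 held 1, and the other windows held none. These are matches of letters, not sites of binding.

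The other genes of the pathway were read from the same fit. Over 59 measured genes of co-receptors, trafficking, adaptors, kinases, transcription factors and inhibitors, 5 were lower and 0 higher (limma; unadjusted, 12 were lower and 1 was higher at a p under 0.05). The 5 lower genes are 8.47% of the 59, beside 1.04% of all genes and 2.31% of genes above the yardstick. The 12 lower before adjustment are 20.3%, beside 6.85% of all genes and 13.6% of genes above the yardstick. Of the 59 genes 44 lay above the yardstick. The lists had a median log2 change of -0.13 beside -0.09 for all genes above the yardstick. Another 7 genes of these lists had no value in this fit: IRAK1, IRAK3, IRAK4, RIPK1, TICAM2, PIK3AP1 and TMED7. Among 7 co-receptors 1 was lower. LY86, which encodes MD-1, read 13.77, 13.91 and 14.35 with DMSO and 13.32, 12.78 and 12.46 with ruxolitinib, and fell by 1.16 ± 0.24 (adjusted p = 0.0493, limma). The call held in 1 of the 6 fits that leave out 1 array, with an adjusted p of up to 0.243 in the others. CD180, the receptor that MD-1 binds on B cells, had overlapping groups and a change of -0.30 ± 0.29. CD14 (0.26 ± 0.20) and LBP (0.24 ± 0.21), which deliver lipopolysaccharide to TLR4, were dim.

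Of 13 measured genes for trafficking and cleavage 1 was lower, HSP90B1, which encodes the chaperone gp96 that folds most of these receptors. Its cluster read 7.05, 8.05 and 8.01 with DMSO and 6.06, 6.47 and 6.57 with ruxolitinib, and fell by 1.34 ± 0.27 (adjusted p = 0.0399, limma). The call was kept in 1 of the 6 fits that leave out 1 array (up to 0.206 in the others). The cluster was weak, with a mean of 7.03 over all arrays beside the yardstick of 5.76. Rows with several gene symbols were not used, and whether any of them reads HSP90B1 was not examined. UNC93B1, which carries the endosomal receptors out of the endoplasmic reticulum, read 12.58, 12.86 and 12.99 with DMSO and 12.27, 11.93 and 11.94 with ruxolitinib. Its groups did not overlap, and its change of -0.76 ± 0.19 did not pass (adjusted p = 0.104). The lysosomal proteases CTSS (-0.62 ± 0.18) and CTSB (-0.58 ± 0.21, and 0.15 ± 0.21 for a second, dim cluster) were also lower without overlap and did not pass. Over the list the median was -0.13.

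Among 5 measured adaptors 0 passed in either direction (limma; also 0 at a p under 0.05 before adjustment). MYD88 read 10.13, 10.84 and 11.27 with DMSO and 10.77, 10.44 and 9.88 with ruxolitinib, overlapping, with a change of -0.38 ± 0.30. TIRAP (-0.22 ± 0.17) and SARM1 (0.16 ± 0.17) were dim, and SCIMP, an adaptor that binds TIR domains in macrophages, had -0.20 ± 0.18. Among 16 measured kinases and ubiquitin ligases, which do not include IRAK1, IRAK4 and RIPK1, 0 passed. At a p under 0.05 before adjustment (limma) 2 were lower and 1 was higher. The 2 lower genes are 12.5% of this list, beside 6.85% of all genes. Of genes above the yardstick, where 15 of the 16 lay, 13.6% were lower at that p. The MyD88-associated kinase IRAK2, at a dim 4.95 ± 0.38 with DMSO (SD), had -0.77 ± 0.23, the ubiquitin ligase PELI2 0.53 ± 0.23, UBE2N -0.48 ± 0.21 and the IKK subunit CHUK -0.41 ± 0.19.

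Downstream, 1 of 9 transcription factors was lower. IRF8 read 11.55, 11.94 and 11.76 with DMSO and 10.73, 10.22 and 10.41 with ruxolitinib, and its adjusted p equalled that of TLR7 (0.00909, limma), but the call was lost in 2 of the 6 fits that leave out 1 array (up to 0.0752). NFKB2 (0.29 ± 0.20), RELA (-0.27 ± 0.21) and the dim RELB (-0.21 ± 0.19) did not pass. Of 9 measured inhibitors of the pathway 2 were lower, TNFAIP3 (A20, which edits ubiquitin), at 13.38 ± 0.22 and 11.97 ± 0.20 (SD), and SOCS1, at a dim 5.52 ± 0.34 and 4.30 ± 0.28. TNFAIP3 kept its call in all 6 fits that leave out 1 array and SOCS1 in 1 of them (up to 0.16). RNF216, a ubiquitin ligase that acts on Toll-like receptors, had -0.61 ± 0.20 and ATF3 -0.51 ± 0.22, and neither passed. The inhibitors' median log2 change was -0.36.

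**Figure D5:**
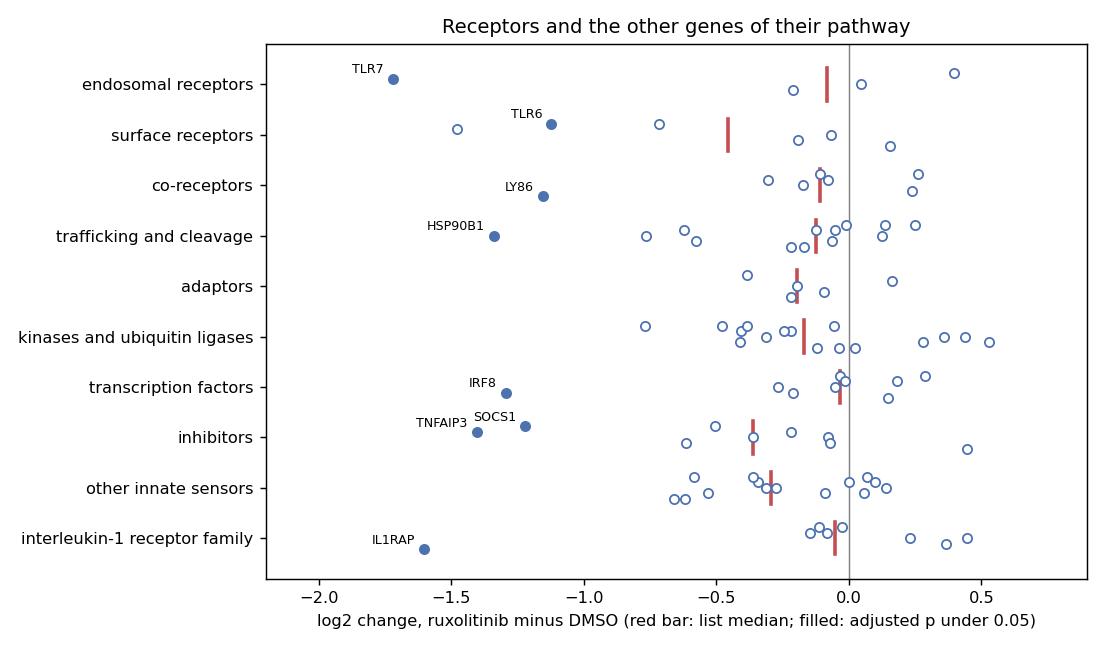
Log2 change (ruxolitinib minus DMSO, horizontal axis) of every measured gene in each list, with the list median as a red bar and genes with an adjusted p under 0.05 filled and named. Each list has at most 2 filled points, all on the lower side.

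Related receptor families were set beside these. Of 14 other innate sensors 0 passed (limma; at a p under 0.05 before adjustment 4 were lower and 0 higher, or 28.6% lower beside 6.85% of all genes and 13.6% of genes above the yardstick), with a median of -0.29. NOD1, a peptidoglycan sensor, had -0.66 ± 0.18, the RNA-dependent kinase EIF2AK2 -0.62 ± 0.18 and NLRP3 -0.53 ± 0.20. AIM2 had -0.58 ± 0.24, but it was dim and its groups overlapped. In the interleukin-1 receptor family, which shares the TIR domain, 1 of 8 genes was lower, and 2 of the 8 lay above the yardstick. This is 12.5%, beside 1.04% of all genes and 2.31% of genes above the yardstick. IL1RAP, the shared accessory chain, read 8.55, 8.49 and 8.79 with DMSO and 7.33, 7.23 and 6.47 with ruxolitinib. It fell by 1.60 ± 0.24 (adjusted p = 0.00797, limma), a call kept in all 6 fits that leave out 1 array. SIGIRR, an inhibitory member, had 0.45 ± 0.21, and the dim genes IL1R2 and IL1RL2 had 0.36 ± 0.20 and -0.15 ± 0.18. Whether these families differ from the Toll-like receptors was not tested.

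The genes most like the called receptors over the 6 arrays were sought among 10947 protein-coding genes above the median level. For TLR7 they were CUL7 (Pearson r 0.997), the interferon-induced MX2 (0.996) and the endosomal tetraspanin CD63 (0.996). For TLR6 they were the Wnt co-receptor LRP5 (0.999), ADGRL1 (0.996) and SEPTIN11 (0.992). These points share the treatment, and their number is small for a search of this size. With the group means taken out, r over the same arrays ran from 0.953 (SEPTIN11 with TLR6) to 0.999 (LRP5 with TLR6). The changes of these genes ran from -0.39 for CUL7 to -0.83 for SEPTIN11, and none passed (adjusted p 0.0824 to 0.484, limma).

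Markers of other cell types were read beside the receptor values. The mean log2 signal of the plasma cell list ran from 10.96 to 11.35 on the DMSO arrays and from 10.03 to 10.49 on the ruxolitinib arrays. JCHAIN and XBP1 were called lower. PRDM1 (log2 change -0.25) and SDC1 (0.24) lay below the yardstick in the mean and had overlapping groups. The ranges of the myeloid list (4.95 to 5.16 and 4.80 to 5.09) and the plasmacytoid dendritic cell list (6.32 to 6.50 and 6.25 to 6.57) overlapped. Of their markers CD68, MPO, LYZ, IL3RA and TCF4 lay above the yardstick, and CD14, CSF1R, CLEC4C and LILRA4 lay below it. IL3RA, a receptor chain for interleukin-3, was lower on every ruxolitinib array without passing (log2 change -0.85 ± 0.20, adjusted p = 0.0824, limma). The dim S100A9 (-0.53 ± 0.17) and S100A8 (-0.41 ± 0.17) were lower without overlap too. The other markers of both lists had overlapping groups and went both ways. CD68 (-0.35), CSF1R (-0.34) and MPO (-0.34) had lower means. FCGR3A (0.27), CD14 (0.26), LYZ (0.22) and ITGAM (0.22) had higher means. CLEC4C (0.18), TCF4 (0.18), LILRA4 (0.09) and SPIB (0.04) were higher in the mean as well. The part of these markers in the receptor results was not tested. In these bulk samples fewer cells that express a receptor and less of its RNA per cell cannot be told apart.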

How the data were processed

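Biotinylated cRNA from total RNA of 6 cell samples was hybridised to Affymetrix arrays. The authors deposited log2 signals, 1 column per array, and the tools listed in the submitters' processing notes are RMA, Transcriptome Analysis Console and Affymetrix Expression Console, with no version or role. That the unit is log2 was read from the range, 1.99 to 19.92. Genome build and filters were not given in the sources used here, and detection calls were not used. Of 135750 rows, 36176 had exactly 1 gene symbol, 1119 several and 98455 none. Symbols were updated through Entrez identifiers with RefSeq GRCh38.p14 (25516 rows matched), giving 33616 genes. Ruxolitinib was compared with DMSO with lmFit and eBayes of limma 3.58.1 under R 4.3.3 (two-sided, no covariates, Benjamini-Hochberg over all genes, threshold 0.05). For arrays, their number limits the precision: the median SE was 0.20. Named were all members, list genes past the threshold and up to 4 per list by adjusted p, the 3 genes most like each called member, neighbours, CISH and SOCS2. JCHAIN, XBP1 and the other markers come from the marker lists. Members and lists were chosen with earlier results of these data known. Deviations from the group means did not correlate positively between arrays of the same number (-0.21, -0.08 and -0.40), so numbers were not treated as pairs.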

Additional observations from a re-analysis of the deposited data

How the results depend on the processing

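The 17 alternatives kept the direction of TLR1, TLR3 to TLR10 at their chosen clusters, while TLR2 (-0.13 to 0.045 with 1 array left out) turned to 0.045 without ruxolitinib replicate 3 and to 0.063 without both arrays that stood apart, and TLR4 to 0.27 in its second cluster. The 2 lower receptor genes became 1 with quantile normalization, cyclic loess or median centring, and 0 with no moderation, with every row tested or with the replicate block (4 at an unadjusted p under 0.05 in each, limma). The count rose to 3, with TLR10, under an intensity trend with robust moderation, only genes above the median level, only protein-coding genes or array weights. With the replicate block the adjusted p was 0.0555 for TLR7 and 0.097 for TLR6. The 5 lower pathway genes became 6 with only protein-coding genes and 3 with quantile normalization, cyclic loess or the block. They became 0 with no moderation (11 unadjusted) or every row (10 unadjusted). The total of 384 genes (350 lower, 34 higher) became 592 (530 and 62) with only protein-coding genes, 104 (98 and 6) over every row, 2 (1 and 1) without moderation and 122 (116 and 6) with the block. Quantile normalization left 220 lower and 56 higher, and cyclic loess 59 higher. Leaving out 1 array gave 101 to 291 genes, 98 to 280 lower, 3 to 28 higher, 1 to 2 receptor genes and 1 to 3 pathway genes. The smallest totals came without ruxolitinib replicate 2 (101) and DMSO replicate 2 (114). The difference of the endosomal and surface medians, 0.37, was 0.13 with second clusters, and 0.26 to 0.52 with 1 array left out. With only genes above the median level the 5 dim receptors were not tested and this difference had no value. The causes were not tested. Dim genes limit what the signal can show.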
